A study of Mus musculus with 6 samples.

Results

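The genes described here are the transcripts of the mouse mitochondrial genome and the nuclear genes that copy, process and translate it. Every entry whose symbol starts with mt- was taken, together with 27 named nuclear genes of mtDNA transcription, replication, RNA stability and translation and of the transcriptional control of mitochondrial genes. This gave 47 of the 15452 entries in the deposited table, of which 20 were mt- genes and 27 were nuclear, and all 47 were tested. The mt- genes were the 13 mRNAs, both rRNAs and 5 tRNAs, and the other 17 of the 22 mitochondrial tRNAs were not analysed here. The rule lists 28 nuclear names, of which one, spelled Tfbm, matched no symbol. Fastkd4 carries the symbol Tbrg4 in the annotation.

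The data are RNA-seq libraries of Th17 cells, the helper T cells that make interleukin 17, which had been grown for 3 days from naive CD4+ T cells of mouse spleen and lymph node. All cultures received IL-6 at 30 ng/mL and TGFβ at 2 ng/mL, with antibodies to CD3 (bound to the plate) and interferon γ at 5 μg/mL each and to CD28 at 1 μg/mL. The PDH knockout libraries (KO, n = 3) came from PDH fl/fl CD4 Cre+ mice, and the WT libraries (n = 3) came from PDH fl/fl mice without Cre. PDH is pyruvate dehydrogenase, the mitochondrial complex that makes acetyl-CoA from pyruvate. Both groups carry the floxed alleles, and Cre, driven by the T cell promoter CD4, is present in every KO library and no WT library, so its own effect cannot be told apart from that of the deletion. The genotype labels name PDH while the titles spell PHD, the floxed gene itself is not named, and the labels do not give the animals' age or say whether replicates came from separate animals. The p-values therefore measure the spread between these samples.

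Mitochondrial DNA is a small circle that encodes subunits of the respiratory chain and ATP synthase and the rRNAs and tRNAs to translate them. Each strand is copied into long RNAs that span many genes, and excision of the tRNAs frees most of the mRNAs and rRNAs. POLRMT, the mitochondrial RNA polymerase, starts at promoters with the factors TFAM and TFB2M. After release, the level of each mRNA also depends on its stability, in which the LRPPRC and SLIRP protein pair is known to take part. All of these factors are encoded in the nucleus and imported.

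Library totals were 33802154 to 39398842 counts in KO and 37556787 to 40407124 counts in WT. KO replicate 2 stood apart: 27 entries were over 5 times higher there than in both other KO libraries and together took 5.85% of its counts, against 0.19% and 0.26% in the other KO libraries and 0.27% to 0.39% in WT. The highest of these by count were an unnamed entry (ENSMUSG00000119584.1), Lars2 and mt-Rnr1, and mt-Rnr1 was the only one of the 47 genes among them. Of the 15361 entries tested, 7311 (47.6%) passed an adjusted p of 0.05 (edgeR quasi-likelihood test, Benjamini-Hochberg adjustment over all entries tested), with 3548 (23.1%) higher and 3763 (24.5%) lower in KO. The median log2 fold change over all entries was 0.01. Of the entries called, 48.53% were higher, and this share was 59.95% with upper-quartile scaling. Under that scaling the median of all entries lay 0.08 higher on the log2 scale. Groups did not overlap in 8941 entries (58.2%). The unit of level is CPM (TMM-scaled counts per 1e6), with values listed for replicates 1, 2 and 3 in that order. Differences are log2 fold changes of KO over WT ± SE.

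The label of the cells was checked against marker genes. All 8 T helper markers were present, with a summed level of 1960 ± 117 CPM by library totals in KO and 2732 ± 207 CPM in WT (SD, n = 3 each). Within that list Cd3e was at 130.1 to 144 CPM in KO and 131 to 138 CPM in WT, and Cd4 was at 331 to 375 CPM in KO and 469 to 491 CPM in WT. The 6 B cell markers summed to 63.8, 128.5 and 191.7 CPM in KO and to 65.6, 120.3 and 53.8 CPM in WT. KO replicates 2 and 3 and WT replicate 2 had the highest sums. The 3 gamma delta T cell markers summed to 4.44 to 9.94 CPM in KO and 1.91 to 2.84 CPM in WT, and the 6 myeloid markers to 5.74 to 10.1 CPM in KO and 8.83 to 22.2 CPM in WT. Of the 4 cytotoxic T and NK markers 2 were measured, with sums of 5.58 to 14.9 CPM in KO and 8.68 to 11.3 CPM in WT. The part of these differences in the results below was not tested. In such bulk samples fewer cells of a type and less RNA per cell cannot be told apart.

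Several mitochondrial mRNAs have near-identical copies in the nuclear genome, remnants of mtDNA inserted there, and the deposited table holds counts for both. Transcripts of the GENCODE M21 annotation (build GRCm38) were aligned to find entries with at least 95% identity to an mt- gene over at least 90% of the copy. The table contained 8 such copies. A run of 7 lies on the minus strand of chromosome 1, and Gm13340, a copy of mt-Co1 with 12 to 32 counts per library, lies on chromosome 2. Of the 8 copies 5 matched their mt- gene at every aligned base: Gm28661 (mt-Co2), Gm10925 (mt-Atp6), Gm28437 (mt-Co3), Gm10222 (mt-Nd4l) and Gm28439, which matches the first 876 of the 1378 bases of mt-Nd4. A read within such bases carries nothing that assigns it to one entry or the other.

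The starts of a pair of these genes and of their copies are shown because they cannot be told apart by sequence (capitals mark the first 3 bases, the start codon, and coordinates are GRCm38). For mt-Co3, which encodes cytochrome c oxidase subunit III, the stretch is chrM:8607-8666 on the plus strand, and for Gm28437 it is chr1:24613912-24613971 on the minus strand. For mt-Atp6, which encodes ATP synthase subunit a, it is chrM:7927-7986 on the plus strand, and for Gm10925 it is chr1:24614592-24614651 on the minus strand.
mt-Co3: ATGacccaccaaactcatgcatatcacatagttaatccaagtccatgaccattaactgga
Gm28437: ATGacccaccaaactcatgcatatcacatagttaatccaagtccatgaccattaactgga
mt-Atp6: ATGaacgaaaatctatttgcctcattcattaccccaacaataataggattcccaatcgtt
Gm10925: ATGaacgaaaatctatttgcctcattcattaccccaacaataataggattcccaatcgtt

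A further pair of copies differed from their mt- gene at 1 aligned base each, set in capitals within the bases around it. Positions are counted from 1 at the 5′ end of the mt- gene, and the mt- gene's base is given first. Gm28438 carries T3C relative to mt-Nd3, a complex I subunit gene, and lies at chr1:24613087-24613119 (minus strand) for the stretch shown, against chrM:9459-9491 (plus strand). Gm29216 matches the 3′ part of mt-Co1, which encodes cytochrome c oxidase subunit I, with A1066T. The alignment covers bases 10 to 492 of the 492 bases of Gm29216, and the bases before these were not compared. Its stretch is chr1:24616155-24616188 (minus strand), against chrM:6390-6423 (plus strand).
mt-Nd3: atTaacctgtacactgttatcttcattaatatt
Gm28438: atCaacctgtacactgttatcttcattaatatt
mt-Co1: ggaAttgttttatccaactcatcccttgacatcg
Gm29216: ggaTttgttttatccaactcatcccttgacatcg

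The counts of these pairs were divided between the mt- entry and its copy in shares that differed between libraries of the same group. Of the counts on mt-Co3 and Gm28437 together, 38.6%, 55.3% and 99.9% were on mt-Co3 in KO replicates 1 to 3, against 99.0%, 43.5% and 35.1% in WT replicates 1 to 3. Gm28437 held 145 counts in KO replicate 3 and 1498 in WT replicate 1, and 50364 to 93099 in the other 4 libraries. For mt-Atp6 the shares were 17.4%, 23.0% and 63.9% in KO and 51.2%, 23.8% and 18.1% in WT. For mt-Nd3 they were 16.8%, 16.1% and 48.7% in KO and 37.2%, 18.0% and 16.3% in WT. KO replicate 3 and WT replicate 1 thus stood apart from the other 4 libraries in all 3 pairs, and these libraries belong to different groups. For mt-Co2, subunit II of the oxidase, most counts were on the nuclear entry everywhere, with 4.50%, 3.02% and 9.98% on mt-Co2 in KO and 7.52%, 4.87% and 2.50% in WT. For mt-Nd4l the same libraries were on the low side, with 48.6%, 47.8% and 31.3% in KO and 31.5%, 45.8% and 44.4% in WT.

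**Figure D1:**
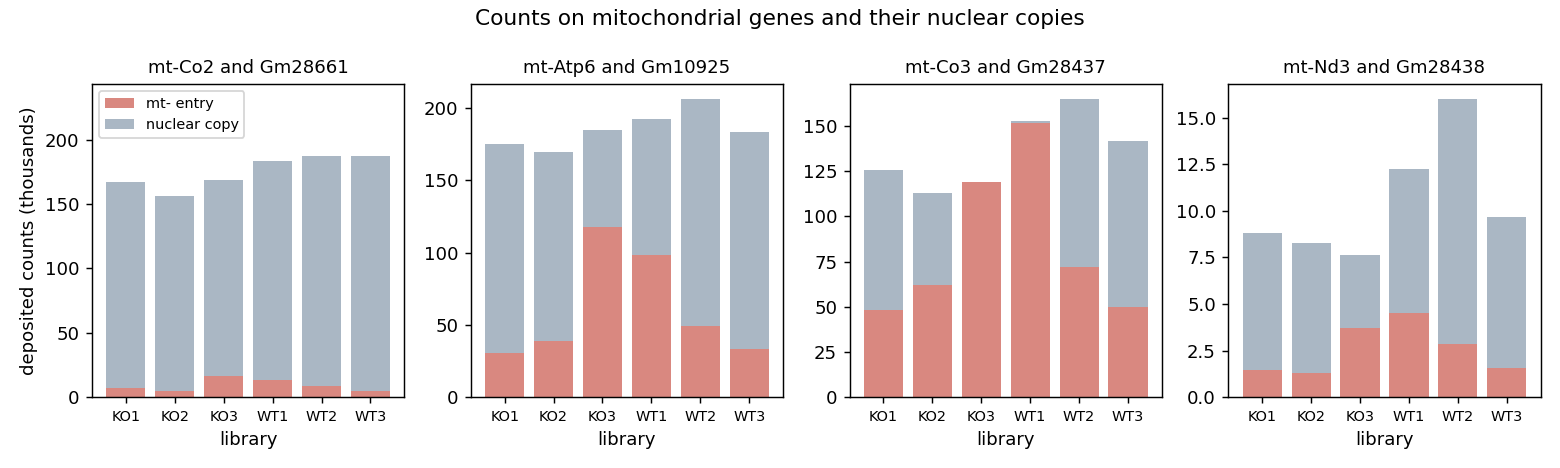
Deposited counts (vertical axes, unit as marked) in each library (horizontal axes, KO 1 to 3 then WT 1 to 3) for mt-Co2, mt-Atp6, mt-Co3 and mt-Nd3 (red) with the nuclear copy of each stacked on top (grey). The red part differs between libraries of the same group, with mt-Co3 at 99.9% in KO replicate 3 and 38.6% in KO replicate 1, while the full bars differ less for mt-Co2, mt-Atp6 and mt-Co3. For mt-Nd3 they run from 7614 to 8801 counts in KO and from 9692 to 16015 in WT.

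Adding the copy to its mt- gene narrowed the spread between replicates for mt-Atp6, mt-Co3 and mt-Co2. For mt-Atp6 the coefficient of variation of CPM was 80.7% in KO and 60.2% in WT for the mt- entry by itself, and 9.36% in KO and 9.03% in WT for the sum. For mt-Co3 it was 52.9% in KO and 62.4% in WT by itself, and 4.09% in KO and 10.7% in WT for the sum. For mt-Co2 it was 69.2% in KO and 53.0% in WT by itself, and 7.17% in KO and 3.63% in WT for the sum. For mt-Nd3 it was 65.3% in KO and 53.1% in WT by itself, and 5.37% in KO and 27.3% in WT for the sum. For mt-Nd4 summing did not narrow it, with 8.10% in KO and 12.1% in WT by itself, and 10.4% in KO and 12.1% in WT for the sum. The mt- genes are given below both by themselves and, named as summed, with their copies. Summing was chosen after the data were seen. A sum also holds any RNA made from the nuclear copy itself.

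Taken by themselves, 3 of the 20 mt- genes were called (15.0%, against 47.6% of all entries), 1 higher and 2 lower in KO, with a median log2 fold change of -0.17. With copies summed, 5 of 20 were called (25.0%, against 7323 of 15353 entries, 47.7%, in that fit), 1 higher and 4 lower, and the median was -0.18. Groups did not overlap in 6 of the 20 by themselves and in 7 of the 20 with copies summed, against 58.2% of all entries. With copies summed, 2, 2, 1, 0 and 0 mt- genes were called on leaving out KO replicate 1, KO replicate 2, KO replicate 3, WT replicate 1 or WT replicate 2, and 5 on leaving out WT replicate 3. These were not the same genes throughout: mt-Nd3 with its copy (adjusted p = 0.000927) was among the calls without WT replicate 3 and was not called with all libraries. Calls over all entries, without summing, also became fewer, from 7311 with all libraries to between 5524 and 6961 on leaving out 1 library.

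Among the genes of complex I, mt-Nd1 fell and mt-Nd5 rose. mt-Nd1, an early gene on the heavy-strand transcript, was at 2559, 2673 and 2738 CPM in KO and at 3240.4, 3598 and 2781 CPM in WT (-0.27 ± 0.09, adjusted p = 0.0365). Every KO library lay below every WT library, with WT replicate 3 the nearest to KO. The mt-Nd5 mRNA, which lies far along the same transcript, was at 2206, 2246 and 2509.8 CPM in KO and at 2110.3, 2010.4 and 1798 CPM in WT (0.23 ± 0.08, adjusted p = 0.0411). Here every KO library lay above every WT library. Each call was lost on leaving out any of 5 libraries: for mt-Nd1 any but WT replicate 3 (adjusted p from 0.0633 to 0.108), and for mt-Nd5 any but KO replicate 1 (adjusted p from 0.051 to 0.146). The mt-Nd1 call was also lost with upper-quartile scaling and with library totals (adjusted p = 0.091 and 0.0618). The ratio of mt-Nd5 to mt-Nd1 counts within a library was 0.862, 0.840 and 0.917 in KO and 0.651, 0.559 and 0.647 in WT. That this ratio separates the groups follows from the values above, so it is not separate support.

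The other complex I genes were not called by edgeR with TMM scaling. mt-Nd4 was at 2494, 2695 and 2932 CPM in KO and at 2475, 2424 and 1970.1 CPM in WT (0.24 ± 0.10, adjusted p = 0.0706). These groups did not overlap, but with Gm28439 summed they did (0.24 ± 0.11, adjusted p = 0.0901). mt-Nd4 by itself was called higher by DESeq2 (adjusted p = 0.0327), with upper-quartile scaling (0.32, adjusted p = 0.02) and with library totals (0.29, adjusted p = 0.0358). mt-Nd3 was at 36.6, 38.1 and 105 CPM in KO and at 123, 75.4 and 39.0 CPM in WT by itself, with the groups interleaved (-0.40 ± 0.68). Summed with Gm28438 it was at 218, 238 and 216 CPM in KO and at 330.1, 419 and 239 CPM in WT (-0.56 ± 0.20, adjusted p = 0.0672). The summed groups did not overlap, with WT replicate 3 just above KO replicate 2, and without WT replicate 3 the difference was called (-0.75, adjusted p = 0.000927). mt-Nd2 was at 1435, 1697 and 1592 CPM in KO and at 1622, 1860.1 and 1451 CPM in WT, with overlap (-0.06 ± 0.10). mt-Nd4l was at 306, 311 and 360.4 CPM in KO and at 336, 332 and 251 CPM in WT when summed (0.09 ± 0.12), again with overlap. mt-Nd6, the one mRNA of the opposite strand, varied most of the mRNAs in KO when summed, at 42.5, 72.8 and 30.9 CPM in KO and 34.3, 75.0 and 99.0 CPM in WT (-0.51 ± 0.55). It shares 14 bases with mt-Nd5 on the other strand, and the sources used here do not state how counting treated strand.

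Of the cytochrome c oxidase genes, mt-Co3 fell when summed and the others were not called. By itself mt-Co3 was at 1197, 1784 and 3362 CPM in KO and at 4087, 1880.2 and 1231 CPM in WT (-0.18 ± 0.66, adjusted p = 0.845). Summed with Gm28437 it was at 3101, 3226 and 3366 CPM in KO and at 4127, 4319 and 3502 CPM in WT (-0.30 ± 0.09, adjusted p = 0.0184), with every KO library below every WT library. That call was lost without KO replicate 1, WT replicate 1 or WT replicate 2 (adjusted p = 0.0568, 0.0738 and 0.0565). mt-Co1, the most abundant mRNA of the genome per length, was at 12757, 12840.2 and 13560.5 CPM in KO and at 14394, 14583.5 and 14401 CPM in WT when summed (-0.15 ± 0.07, adjusted p = 0.0955). Its groups did not overlap, and the spread between WT replicates was small (coefficient of variation 0.744%). mt-Co2 was at 4129.7, 4481 and 4768 CPM in KO and at 4952, 4899 and 4625 CPM in WT when summed, where KO replicate 3 lay within the WT range (-0.11 ± 0.08, adjusted p = 0.244). By itself mt-Co2 had a difference of the opposite sign with an SE several times its size (0.13 ± 0.72).

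Of the ATP synthase and complex III genes, mt-Atp8 passed in the fit with copies summed and the others were not called. The mt-Atp8 mRNA was at 650.4, 684 and 718 CPM in KO and at 875, 849.7 and 697 CPM in WT, with WT replicate 3 inside the KO range. In the fit with copies summed it passed (-0.24 ± 0.09, adjusted p = 0.0489) and not by itself (adjusted p = 0.0522), although it has no copy among the 8. mt-Atp6 was at 4334, 4854 and 5229.8 CPM in KO and at 5201, 5411 and 4537 CPM in WT when summed, with overlap (-0.07 ± 0.09, adjusted p = 0.558). These genes share 43 bases on the same strand. mt-Cytb, the cytochrome b gene of complex III, was at 3375, 3935 and 3569 CPM in KO and at 3229.9, 3987 and 3012 CPM in WT, with overlap (0.09 ± 0.11, adjusted p = 0.523).

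**Figure D2:**
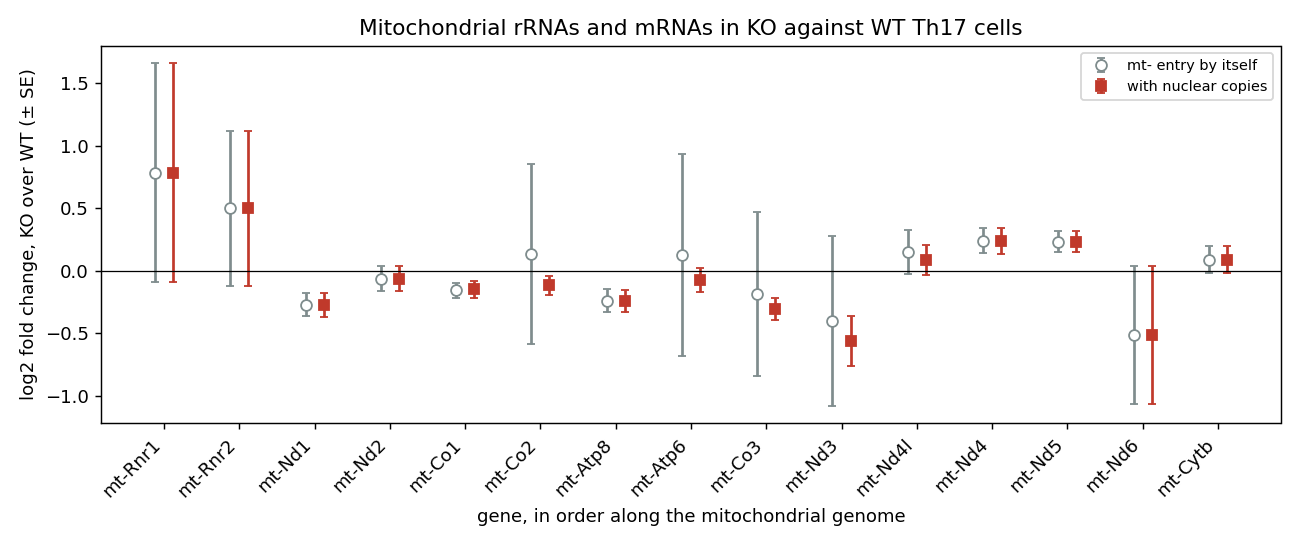
Log2 fold change of KO over WT (vertical axis, ± SE) for both rRNAs and the 13 mRNAs in their order along the mitochondrial genome (horizontal axis), for the mt- entry by itself (open circles) and with nuclear copies summed (red squares). Summing narrows the error most for mt-Co2, mt-Atp6, mt-Co3 and mt-Nd3, and the wide bars of mt-Rnr1 and mt-Rnr2 come with 1 KO library far above the others.

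When the summed genes were read in their order along the heavy-strand transcript, the signs fell into 2 runs. This order was looked at after the values were seen, so it is a description with no test. The 8 mRNAs from mt-Nd1 to mt-Nd3 had log2 fold changes from -0.56 to -0.06 with a median of -0.19, all 8 below 0. The 4 mRNAs from mt-Nd4l to mt-Cytb had values from 0.09 to 0.24 with a median of 0.16, none below 0. Of these 12 genes, mt-Nd1, mt-Atp8, mt-Co3 and mt-Nd5 were called. With upper-quartile scaling mt-Nd2 and mt-Atp6 were at 0.02 and 0.01, and without WT replicate 3 mt-Nd4l was at -0.04. The ratio of the counts of the later 4 to those of the earlier 8, which needs no scaling between libraries, was 0.298, 0.309 and 0.306 in KO and 0.245, 0.253 and 0.227 in WT. The lowest KO ratio lay above the highest WT ratio. The 2 runs were set after the values were seen, so this ratio is not separate support. By themselves, without copies, the ratios were 0.430, 0.441 and 0.358 in KO and 0.294, 0.357 and 0.327 in WT, and KO replicate 3 was then just above WT replicate 2.

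**Figure D3:**
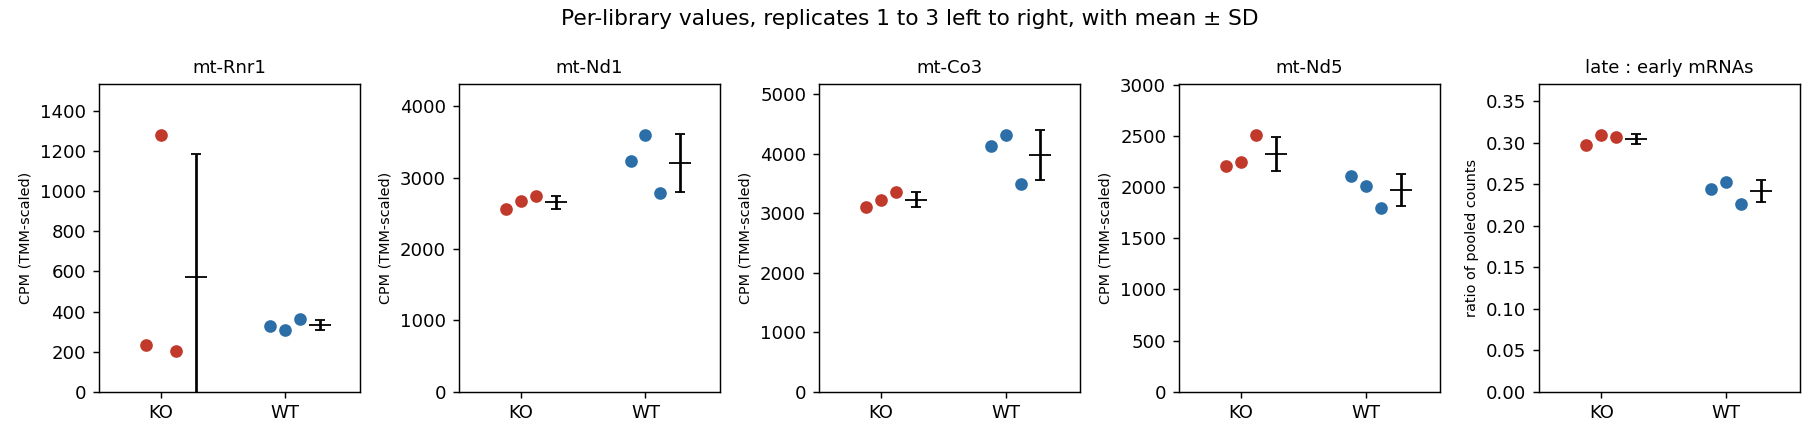
Values per library (KO red, WT blue, replicates 1 to 3 left to right) with mean ± SD, as TMM-scaled CPM for mt-Rnr1, mt-Nd1, mt-Co3 with its copy and mt-Nd5, and as the ratio of later to earlier heavy-strand mRNA counts with copies summed. KO replicate 2 is at 1282 CPM of mt-Rnr1 against 205 and 231 CPM in the other KO libraries (the lower SD bar is cut at 0), and the 3 KO ratios of 0.298 to 0.309 lie above the 3 WT ratios of 0.227 to 0.253.

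The total of the 13 mRNAs overlapped between the groups. They took 2.81%, 2.89% and 3.62% of all counts in KO and 3.44%, 3.16% and 2.81% in WT. With the copies summed they took 3.89%, 3.93% and 4.39% in KO and 4.26%, 4.37% and 3.97% in WT. The 27 entries high in KO replicate 2 are part of the library totals used here. With those entries left out, the shares were 2.815%, 3.068% and 3.626% in KO and 3.452%, 3.171% and 2.823% in WT. With copies summed the shares were then 3.897%, 4.177% and 4.402% in KO and 4.28%, 4.38% and 3.985% in WT. The groups overlapped in both forms. Per kilobase of gene and with copies summed, mt-Co1 had the highest level (8448 ± 286 CPM per kb in KO, 9359 ± 69.6 in WT), then mt-Atp6 (7057 ± 661 in KO, 7415 ± 670 in WT) and mt-Co2 (6519.8 ± 468 in KO, 7055 ± 256 in WT). Within each group the mean ± SD ranges of mt-Atp6 and mt-Co2 overlapped. Both were measured in the same libraries, and their difference within a library was not tested. mt-Co3 followed at 4121 ± 169 CPM per kb in KO and 5079.96 ± 545 in WT. mt-Nd6 had the lowest level, at 94.0 ± 41.7 CPM per kb in KO and 134 ± 63.0 in WT, below mt-Nd3 at 643 ± 34.5 in KO and 947 ± 259 in WT (SD, n = 3 each).

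The rRNA genes were not called, and their apparent increase came with a single library. mt-Rnr1, the 12S rRNA of the small mitochondrial ribosomal subunit, was at 231, 1282 and 205 CPM in KO and at 329, 307 and 360.5 CPM in WT (0.78 ± 0.87, adjusted p = 0.512). Without KO replicate 2 the direction turned and the gene was called lower (-0.61, adjusted p = 0.00115). mt-Rnr2, the 16S rRNA of the large subunit, was at 802, 2477 and 658 CPM in KO and at 884, 1125 and 778 CPM in WT (0.50 ± 0.62, adjusted p = 0.556), and without KO replicate 2 at -0.35 (adjusted p = 0.139). Without KO replicate 2 the machinery counts given below were 8 lower and 1 higher. Over all entries 3210 were then lower and 2900 higher, against 3763 and 3548 with all libraries. The kit selects mRNA by the labels, so rRNA here is what passed that selection.

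The 5 tRNAs measured had 3 to 136 counts per library, and the kit is not made for RNAs of that length. mt-Tw, the tryptophan tRNA, fell, with 60, 44 and 22 counts in KO and 64, 103 and 72 counts in WT (-0.87 ± 0.32, adjusted p = 0.0488). That call was lost on leaving out any library other than KO replicate 1 (adjusted p from 0.0622 to 0.146), with upper-quartile scaling (adjusted p = 0.0674) and by limma-voom (adjusted p = 0.0532). The other 4 had log2 fold changes from -0.42 to -0.22 and were not called. Of these, mt-Tl1, the leucine tRNA next to mt-Rnr2, had 87, 54 and 86 counts in KO and 117, 136 and 59 counts in WT, with overlap. Without WT replicate 3 it was called lower (-0.72, adjusted p = 0.0343).

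Of the 27 nuclear genes 12 were called (44.4%, against 47.6% of all entries), 2 higher and 10 lower in KO, against 23.1% and 24.5% of all entries in each direction. The median log2 fold change was -0.11, with 19 values below 0 and 8 above, and groups did not overlap in 16 of 27 (against 58.2%). With upper-quartile scaling 6 were lower and 3 higher. Over all entries 2927 were then lower and 4382 higher, against 3763 and 3548 with TMM. Leaving out 1 library at a time gave 7 to 10 lower and 1 to 2 higher, while calls over all entries numbered 5524 to 6961, against 7311. The summed level was 1057, 1071 and 1045 CPM in KO and 1158, 1219 and 1108 CPM in WT, where every KO sum was below every WT sum. Per kilobase of annotated exon, Tufm was highest, at 44.3 ± 1.44 CPM per kb in KO and 56.1 ± 2.97 in WT, and Ppargc1b lowest, at 0.794 ± 0.104 in KO and 1.15 ± 0.135 in WT (SD, n = 3 each).

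**Figure D4:**
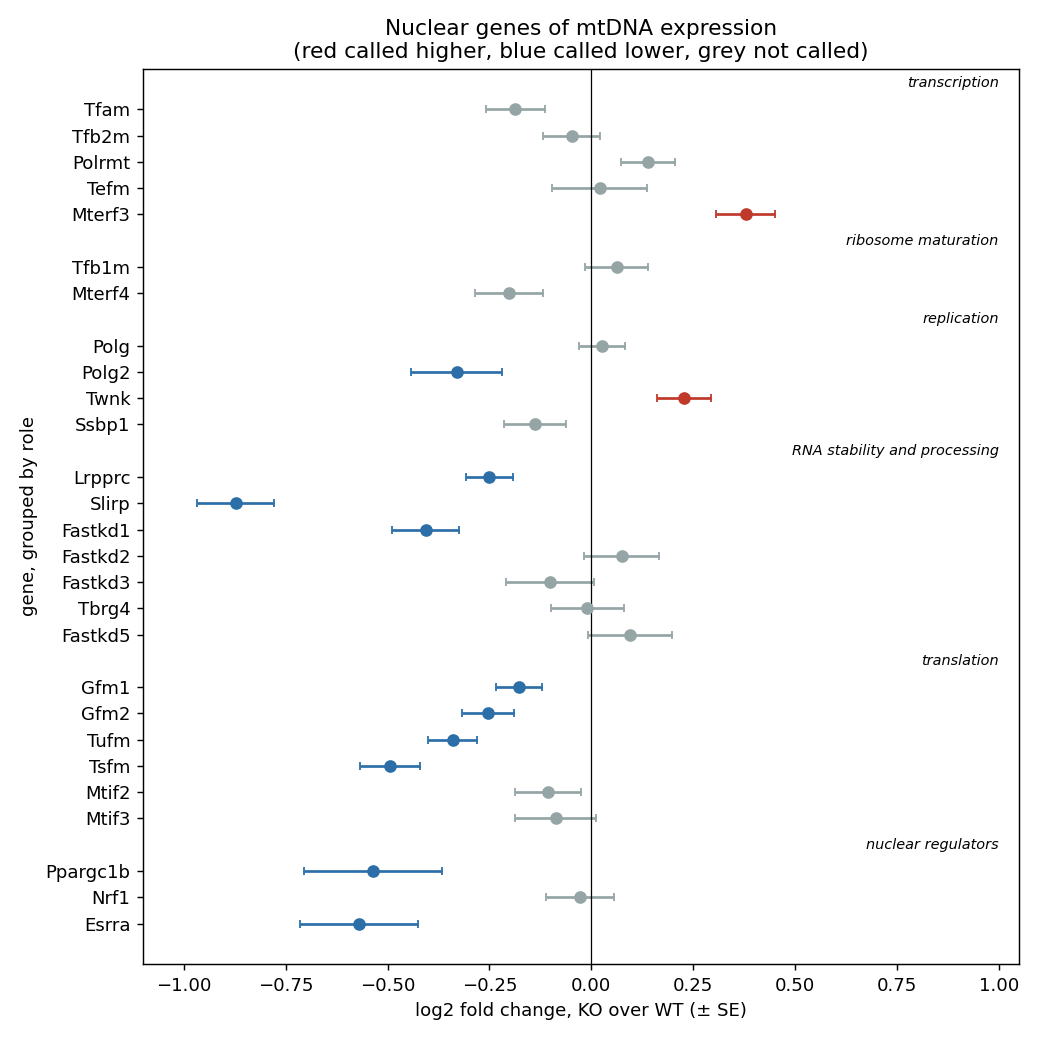
Log2 fold change of KO over WT (horizontal axis, ± SE) of the 27 nuclear genes (vertical axis), grouped by role, with called higher in red, called lower in blue and not called in grey. The lowest value is Slirp at -0.87 and the highest is Mterf3 at 0.38.

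In the RNA stability group 3 of 7 genes fell and none rose, so that 42.9% were called against 47.6% of all entries (24.5% lower). Slirp, whose product pairs with LRPPRC to protect mitochondrial mRNAs, was at 14.6, 15.9 and 16.2 CPM in KO and at 29.5, 30.8 and 25.2 CPM in WT (-0.87 ± 0.10, adjusted p = 0.000117). The highest KO library was well below the lowest WT library, and this was the lowest log2 fold change of the 27 genes. Lrpprc was at 104, 104 and 99.1 CPM in KO and at 122, 126 and 116 CPM in WT (-0.25 ± 0.06, adjusted p = 0.00574), also with no overlap. Within a library the ratio of Slirp to Lrpprc CPM was 0.141, 0.154 and 0.163 in KO and 0.241, 0.244 and 0.217 in WT. This ratio is made from the values above and is not separate support. Fastkd1, of the FASTK family of mitochondrial RNA-binding proteins, was at 13.3, 14.4 and 14.7 CPM in KO and at 18.8, 18.2 and 19.2 CPM in WT (-0.41 ± 0.08, adjusted p = 0.00299). The other family members, Fastkd2, Fastkd3, Fastkd5 and Tbrg4, had log2 fold changes from -0.10 to 0.10, none called, and their groups overlapped.

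The translation group had 4 of 6 genes lower and none higher (66.7% called), against 24.5% of all entries lower and 23.1% higher. Tsfm, the exchange factor that reloads elongation factor Tu with GTP, was at 25.4, 23.7 and 22.4 CPM in KO and at 33.2, 34.7 and 32.8 CPM in WT (-0.49 ± 0.07, adjusted p = 0.000608). Tufm, elongation factor Tu itself, which brings tRNAs to the ribosome, was at 90.6, 96.3 and 95.6 CPM in KO and at 119.6, 125 and 113 CPM in WT (-0.34 ± 0.06, adjusted p = 0.00148). Neither pair of groups overlapped. Gfm2, which acts in ribosome recycling, was at 53.8, 50.3 and 54.8 CPM in KO and at 63.6, 60.4 and 65.4 CPM in WT (-0.25 ± 0.06, adjusted p = 0.00869). Gfm1, the translocation factor, was at 80.5, 81.5 and 75.0 CPM in KO and at 89.6, 88.6 and 89.6 CPM in WT (-0.18 ± 0.06, adjusted p = 0.0277). The Gfm1 call was lost without KO replicate 3, WT replicate 1 or WT replicate 3 (adjusted p = 0.106, 0.093 and 0.0507). Both Gfm calls were lost with upper-quartile scaling (adjusted p = 0.0575 for Gfm2 and 0.175 for Gfm1), and that of Gfm1 also with library totals (adjusted p = 0.0909). The initiation factor genes Mtif2 and Mtif3 were at -0.11 ± 0.08 and -0.09 ± 0.10 (adjusted p = 0.311 and 0.495).

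Among the transcription genes, Mterf3 rose and the initiation machinery was not called. Mterf3, whose loss in mice raises mtDNA transcription, was at 32.7, 31.0 and 32.1 CPM in KO and at 25.1, 25.4 and 23.1 CPM in WT (0.38 ± 0.07, adjusted p = 0.0021), with no overlap. Tfam, which packages mtDNA and bends its promoters, was at 64.7, 62.5 and 59.0 CPM in KO and at 68.1, 77.3 and 66.4 CPM in WT (-0.19 ± 0.07, adjusted p = 0.0592). Its groups did not overlap, and without WT replicate 3 it was called lower (adjusted p = 0.0374). Polrmt was at 34.5, 34.1 and 35.3 CPM in KO and at 32.3, 32.0 and 30.0 CPM in WT (0.14 ± 0.07, adjusted p = 0.108), and passed with upper-quartile scaling (0.22, adjusted p = 0.0199). Tfb2m, the partner of POLRMT in opening promoters, was at 30.5, 29.2 and 30.3 CPM in KO and at 30.2, 32.9 and 30.0 CPM in WT (-0.05 ± 0.07). Tefm, the elongation factor, was at 8.24, 8.70 and 7.57 CPM in KO and at 7.54, 8.72 and 7.91 CPM in WT (0.02 ± 0.12). Both had overlapping groups.

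Neither gene of ribosome maturation was called by edgeR, against 47.6% of all entries. Of the 2, 1 had an unadjusted p under 0.05, against 8441 of 15361 entries. Mterf4, which brings an rRNA methyltransferase to the large subunit, was at 14.3, 14.6 and 15.0 CPM in KO and at 16.7, 15.9 and 17.8 CPM in WT (-0.20 ± 0.08, adjusted p = 0.072), with no overlap. Tfb1m, which methylates the 12S rRNA, was at 16.1, 16.1 and 16.6 CPM in KO and at 15.4, 15.8 and 15.5 CPM in WT (0.06 ± 0.08, adjusted p = 0.538).

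The replication genes moved in both directions. Twnk, the mtDNA helicase, was at 35.3, 36.7 and 33.5 CPM in KO and at 29.5, 29.9 and 30.7 CPM in WT (0.23 ± 0.07, adjusted p = 0.0194). Polg2, the accessory subunit of the mtDNA polymerase, was at 8.17, 7.65 and 7.25 CPM in KO and at 9.70, 8.93 and 10.4 CPM in WT (-0.33 ± 0.11, adjusted p = 0.0352). Neither pair of groups overlapped. The Twnk call was lost without KO replicate 1, KO replicate 2 or WT replicate 1 (adjusted p = 0.0506, 0.0807 and 0.0855), and the Polg2 call without KO replicate 2, KO replicate 3, WT replicate 1 or WT replicate 3 (adjusted p = 0.0821, 0.115, 0.102 and 0.098). Polg2 was also lost with upper-quartile scaling and with library totals (adjusted p = 0.104 and 0.0789). The catalytic subunit gene Polg was at 101, 105 and 102 CPM in KO and at 99.8, 106 and 97.2 CPM in WT (0.03 ± 0.06). Ssbp1, which coats single-stranded mtDNA, was at 40.5, 37.3 and 34.7 CPM in KO and at 40.3, 43.7 and 39.8 CPM in WT (-0.14 ± 0.08, adjusted p = 0.163), with KO replicate 1 inside the WT range.

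Of the nuclear regulators, Esrra and Ppargc1b fell and Nrf1 was not called. Esrra, a nuclear receptor that drives genes of oxidative metabolism, was at 11.4, 17.8 and 15.8 CPM in KO and at 21.8, 22.2 and 22.6 CPM in WT (-0.57 ± 0.15, adjusted p = 0.0111). The KO libraries were spread more widely than the WT libraries, with no overlap. Ppargc1b, a coactivator of that receptor, was at 3.47, 2.69 and 3.34 CPM in KO and at 5.21, 4.32 and 4.25 CPM in WT (-0.54 ± 0.17, adjusted p = 0.0256), also with no overlap. Its call was lost without KO replicate 2, KO replicate 3 or WT replicate 1 (adjusted p = 0.0892, 0.0536 and 0.116) and with upper-quartile scaling (adjusted p = 0.0528). Nrf1, a transcription factor of many mitochondrial genes, was at 60.4, 60.9 and 62.3 CPM in KO and at 63.3, 69.4 and 54.6 CPM in WT (-0.03 ± 0.08, adjusted p = 0.806).

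**Figure D5:**
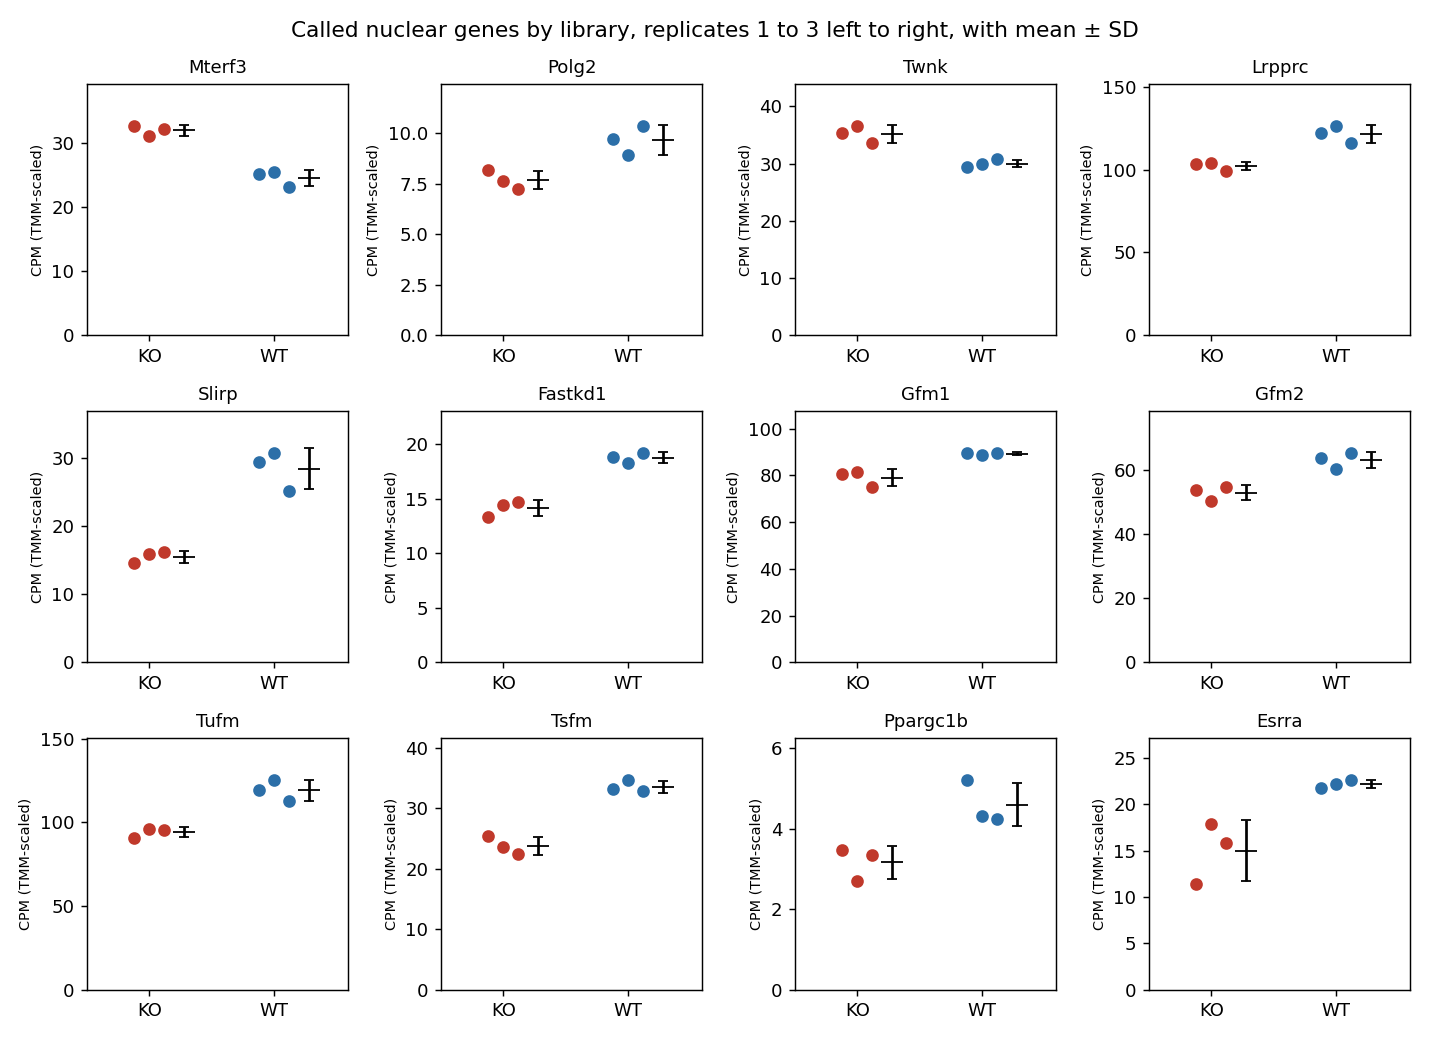
TMM-scaled CPM (vertical axes, from 0) of the 12 called nuclear genes in each library (KO red, WT blue, replicates 1 to 3 left to right) with mean ± SD. In all 12 the KO and WT points do not overlap. Slirp shows KO at 14.6 to 16.2 CPM and WT at 25.2 to 30.8 CPM.

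Promoter windows of the nuclear genes, 250 bases before to 50 after the start site (RefSeq, GRCm38.p6), were searched on both strands for 4 motifs. A window was held for 24 of the 27 genes, 26 windows in all, and Mterf3, Mtif3 and Ppargc1b had none. CCGGAAG, the core bound by GABP and other ETS factors, was in 14 of the 26 windows (53.85%), against 2289 of 13310 windows of tested genes (17.2%). GCGCNTGCGC, the NRF1 motif, was in 3 (11.54%, against 9.51%), AAGATGGC, the YY1 motif, in 2 (7.69%, against 4.30%), and TCAAGGTCA, the ESRRA motif, in none (against 0.28%). A match is a string of letters and not evidence of binding. Of the 14 genes with CCGGAAG 5 were called (Slirp, Tufm, Gfm1 and Polg2 lower, Twnk higher), and of the 10 with a window and no match 5 were called (Lrpprc, Fastkd1, Tsfm, Gfm2 and Esrra, all lower). Of all entries 47.6% were called, 23.1% higher and 24.5% lower. Slirp, with 3 matches, and Tufm, with 1, are shown as genes that fell and hold the motif. Capitals mark CCGGAAG, or CTTCCGG where it lies on the opposite strand. The windows are chr12:87443646-87443945 for Slirp and chr7:126487105-126487404 for Tufm, both on the plus strand.
Slirp: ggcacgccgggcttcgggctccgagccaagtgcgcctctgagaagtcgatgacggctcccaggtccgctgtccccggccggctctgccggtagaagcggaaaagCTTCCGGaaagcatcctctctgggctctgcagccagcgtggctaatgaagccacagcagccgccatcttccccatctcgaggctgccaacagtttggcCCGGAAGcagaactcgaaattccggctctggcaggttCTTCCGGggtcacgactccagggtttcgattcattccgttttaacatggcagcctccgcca
Tufm: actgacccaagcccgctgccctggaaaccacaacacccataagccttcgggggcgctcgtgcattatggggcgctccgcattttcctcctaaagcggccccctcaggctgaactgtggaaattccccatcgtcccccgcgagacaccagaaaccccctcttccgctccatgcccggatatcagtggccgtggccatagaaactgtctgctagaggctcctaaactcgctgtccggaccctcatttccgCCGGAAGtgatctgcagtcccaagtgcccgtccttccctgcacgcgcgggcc

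Further genes of the same pathways were read from 7 lists, of which 81 of 86 genes were tested. In all, 34 of the 81 were called (42.0%, against 47.6% of all entries), 20 higher and 14 lower, with a median log2 fold change of -0.02. Of 16 genes of mtDNA replication, repair and nucleotide supply 8 rose and none fell. The share called is near the 47.6% of all entries, of which 23.1% were higher and 24.5% lower. Slc25a36, a carrier of pyrimidine nucleotides, was at 78.7, 90.3 and 89.3 CPM in KO and at 49.4, 49.8 and 58.0 CPM in WT (0.72 ± 0.08, adjusted p = 0.00016). Dguok, the mitochondrial deoxyguanosine kinase, was at 23.6, 21.4 and 23.9 CPM in KO and at 15.5, 12.7 and 15.0 CPM in WT (0.67 ± 0.10). Mpv17, an inner membrane protein needed for mtDNA maintenance, and Mgme1, a nuclease of mtDNA, rose by 0.55 ± 0.08 and 0.45 ± 0.08. None of these 4 genes had overlapping groups.

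The RNA processing and decay list had 6 of 16 genes lower and none higher, 37.5% called against 47.6% of all entries (23.1% higher, 24.5% lower). Hsd17b10, a subunit of mitochondrial RNase P, was at 36.2, 41.6 and 42.8 CPM in KO and at 60.1, 56.5 and 59.3 CPM in WT (-0.55 ± 0.08, adjusted p = 0.000393). Pnpt1, polynucleotide phosphorylase, fell by 0.40 ± 0.08, Rexo2, an oligoribonuclease, by 0.35 ± 0.07 and Mtpap, the mitochondrial poly(A) polymerase, by 0.32 ± 0.06. In RNA modification 4 of 15 rose and 2 fell (40.0% called, also below the share of all entries). Mrm3, an rRNA methyltransferase, was at 15.5, 16.9 and 13.7 CPM in KO and at 10.2, 11.4 and 8.06 CPM in WT (0.64 ± 0.14, adjusted p = 0.00437). Nsun3 and Osgepl1, which modify tRNAs, rose by 0.44 ± 0.13 and 0.37 ± 0.10, and Mto1, which modifies the wobble base of tRNAs, fell by 0.42 ± 0.08.

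Among the other regulators 5 of 10 rose and 3 fell (80.0% called, against 47.6% of all entries, 23.1% higher and 24.5% lower). Gabpb2 and Gabpb1, beta subunits of GABP, rose by 0.69 ± 0.07 (234 ± 15.3 CPM in KO, 145 ± 8.50 in WT, SD, n = 3 each) and 0.29 ± 0.06 (82.1 ± 3.38 CPM in KO, 67.1 ± 0.769 in WT). Gabpa, the alpha subunit of GABP, did not rise. It was at -0.12 ± 0.06 (adjusted p = 0.132, not called), with every KO library below every WT library. The 3 that fell were Yy1 (-0.25 ± 0.06), Ppard (-0.33 ± 0.09) and Nfe2l2 (-0.25 ± 0.07). Sirt1, a deacetylase, was at 75.3, 64.7 and 60.3 CPM in KO and at 36.2, 43.3 and 38.5 CPM in WT (0.76 ± 0.10, adjusted p = 0.000255). Pprc1, a coactivator of the same family as Ppargc1b, rose by 0.44 ± 0.07 with 204, 179.8 and 199.6 CPM in KO and 146, 148 and 137 CPM in WT. In mitoribosome assembly 1 of 11 rose and 3 fell (36.4% called), with Rbfa at -0.45 ± 0.06, Malsu1 at -0.42 ± 0.09, Ddx28 at -0.24 ± 0.08 and Mtg1 at 0.32 ± 0.08. Of 10 other translation genes none fell and 2 rose, Guf1 (0.28 ± 0.07) and Qrsl1 (0.25 ± 0.08). The share called in that list was below the 47.6% of all entries, of which 23.1% were higher and 24.5% lower. Of 3 other transcription genes none passed by edgeR, and none had an unadjusted p under 0.05 (against 8441 of 15361 entries). Mterf1a was at -0.18 ± 0.12 and Mterf2 at -0.14 ± 0.11.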

How the data were processed

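The authors deposited expected counts (estimated read counts per gene, here whole numbers, so no rounding was needed) for 6 libraries. Salmon, DESeq2 and DESeq appear in the submitters' processing notes, with neither version nor role. The genome build is not given in the sources used here, nor is the annotation. Per the labels' protocols, RNA extraction used a NucleoSpin kit and library preparation the TruSeq Stranded mRNA kit. No deposited row has fewer than 3 libraries at 10 counts or more. Symbols were matched on unversioned IDs to GENCODE M21: 15138 matched and 314 did not. A count of 0 in a library would allow up to 3 counts, about 0.0742 to 0.0888 CPM (counting error only).

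The counts were tested with edgeR 4.0.16 in R 4.3.3 (filterByExpr, which removed 91 entries, TMM, robust quasi-likelihood F test, genotype as the only term, Benjamini-Hochberg over 15361 entries, threshold 0.05). SE is the size of the log2 fold change divided by the square root of F. The biological coefficient of variation was 13.8%. No replicates were alike enough to be 1 library deposited again (chi-square per degree of freedom of at least 24.3). Nuclear copies were found with blastn 2.17.0. The alternatives were other scalings, DESeq2 1.42.0, limma-voom 3.58.1, other filters, no robust dispersion, a test against 1.2-fold, a block for the replicate number, KO replicate 2 entries left out, and each library left out. Summing copies in all fits was added after the data were seen. The members, lists, markers and ratios were chosen with earlier results of these data known, so sums, shares and ratios over members carry no p. Every member may be named, and of each list up to 4 called genes with the smallest adjusted p, or up to 2 in a list with no call. Gabpa, Yy1, Ppard and Nfe2l2 were named in addition. Figures were drawn with matplotlib 3.10.9.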

Additional observations from a re-analysis of the deposited data

How the results depend on the processing

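Tested against a fold change of 1.2, 3981 of all entries were called, 0 mt- genes by themselves or with copies summed, 3 nuclear genes lower (Slirp, Tsfm and Esrra) and 0 higher. The mt- genes called by themselves numbered 6 by DESeq2, 0 without robust dispersion and 5 with copies summed, and with copies summed 8 by DESeq2 and 3 with upper-quartile factors. The nuclear genes called lower numbered 6 with upper-quartile factors, where 2927 of all entries were lower, against 3763 with TMM. Calls over all entries, without summing, numbered 6972 by DESeq2, 7224 without robust dispersion and 7309 with upper-quartile factors. Leaving out 1 library gave 0 to 3 mt- genes by themselves, 0 to 5 with copies summed, 7 to 10 nuclear genes lower and 1 to 2 higher. Of all entries 5524 to 6961 were called in these fits, against 7311 with all libraries. The cause of these changes was not tested. DESeq2 and limma-voom called mt-Co1 lower (adjusted p = 0.0122 and 0.037) and also mt-Nd3 with its copy (0.0372 and 0.0382). DESeq2 also called mt-Nd4 higher (0.0327, and 0.0466 with its copy) and mt-Atp8 lower (0.0233). With the filter of 50 counts mt-Nd1 (0.0575), Polg2 (0.0566) and Gfm1 (0.0743) were not called, and mt-Nd4 was (0.0327).

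Signs turned for genes that were not called. With upper-quartile factors mt-Nd2 was at 0.018, Tfb2m at 0.031, Tbrg4 at 0.071, Nrf1 at 0.053 and mt-Atp6 with its copy at 0.009. Library totals put Tbrg4 at 0.036 and Nrf1 at 0.018, and the filter of 50 counts put them at 0.035 and 0.018. mt-Atp6 by itself was at -0.001 by limma-voom. Summed with copies, mt-Co2 was at -0.114 and mt-Atp6 at -0.071. Leaving out 1 library gave ranges of -0.612 to 1.185 for mt-Rnr1, -0.352 to 0.819 for mt-Rnr2, -0.490 to 0.105 for mt-Ti, -0.146 to 0.035 for mt-Nd2, -0.593 to 0.584 for mt-Co2, -0.767 to 0.719 for mt-Atp6, -0.687 to 0.441 for mt-Co3, -1.082 to 0.065 for mt-Nd3, -0.031 to 0.081 for Tefm, -0.002 to 0.063 for Polg, -0.013 to 0.170 for Fastkd2, -0.192 to 0.030 for Fastkd3, -0.110 to 0.075 for Tbrg4, -0.116 to 0.054 for Nrf1 and -0.039 to 0.157 for mt-Nd4l with its copy.

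KO and WT share replicate numbers, but deviations of same-numbered libraries correlated at -0.098, 0.093 and -0.259, so the numbers were not taken as pairs, and not every library correlated best with its own number. With the replicate block 2 mt- genes by themselves and 4 with copies summed were called, and 10 nuclear genes were lower and 2 higher. Over all entries, without summing, 7218 were called under the block, 3745 lower and 3473 higher. Polg2 (adjusted p = 0.0509) and mt-Nd5 (0.0664) were not called under the block, Tfam (0.0498) and mt-Nd3 with its copy (0.0218) were, and mt-Atp6 by itself was at -0.030. Depth limits the tRNAs, at 3 to 136 counts. Counts in whole genes cannot divide reads between an mt- gene and an identical copy.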
